A study of Mus musculus with 12 samples.

Results

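The tanycyte genes Rax, Dio2, Col23a1, Crym, Vim and Nes, were followed through a pull-down of tagged ribosomes from hypothalamic cells with the long leptin receptor (LepRb). These 6 genes were chosen by symbol from a table of 52638 counted entries, and all 6 were found by Ensembl identifier in GENCODE M21 on GRCm38. All mice carried LepRb-Cre on both alleles (LepRb-Cre/Cre) and, at the R26 locus, a green fluorescent protein fused to ribosomal protein L10a on both alleles (GFP:L10a/GFP:L10a). Stat3KO mice were in addition Stat3-flox/flox, and Ctrl mice had no floxed Stat3 allele named in their genotype. RNA from adult hypothalamus was split into RNA on the tagged ribosomes (bead-bound) and the RNA left behind (supernatant), which gave 4 groups of 3 libraries from 6 pools of 5 to 8 mice. LepRb-Cre switches the tag on for good in any cell that has expressed it, so bead-bound RNA is meant to come from LepRb cells, and the comparison of the fractions asks whether it also holds RNA of tanycytes.

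Tanycytes are elongated glial cells in the floor and lower walls of the third ventricle. Their cell bodies touch the cerebrospinal fluid and their long processes reach into the arcuate nucleus and the median eminence, where they meet blood vessels. They convert and pass on thyroid hormone, control the barrier between blood, cerebrospinal fluid and tissue, and keep features of radial glia. Whether they carry LepRb and move leptin into the brain has been debated. Of the 6 genes, Rax encodes a homeobox transcription factor that in the adult hypothalamus is known mainly from tanycytes. Dio2 encodes the deiodinase that activates thyroid hormone and is also found in astrocytes, and Crym encodes a cytosolic thyroid hormone-binding protein that many neurons make too. Col23a1 encodes a transmembrane collagen. Vim and Nes encode the intermediate filament proteins vimentin and nestin, both of which are made by vascular cells as well.

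The sequence upstream of Dio2 is shown because Dio2 had the largest difference between the fractions among the 6 genes. It is the 250 bases before the RefSeq start site on GRCm38.p6, chr12:90739039-90739288, minus strand, and no GENCODE exon lies in it. The RefSeq start site, at 90739038, lies upstream of the start of Dio2 in GENCODE, at 90738438. Capitals mark a cAMP response element (TGACGTCA), from 95 to 88 bases before the RefSeq start, and a TATA box (TATAAA), from 30 to 25 bases before it.

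Dio2: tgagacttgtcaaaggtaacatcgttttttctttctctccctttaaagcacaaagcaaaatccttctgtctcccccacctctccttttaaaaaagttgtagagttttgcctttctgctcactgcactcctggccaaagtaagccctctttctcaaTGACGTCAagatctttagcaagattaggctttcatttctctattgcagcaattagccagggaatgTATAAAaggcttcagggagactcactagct

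Of the 6 members Dio2, Col23a1, Vim and Nes (4 genes) matched the RefSeq table of promoter windows, which run from 250 bases before to 50 bases after a start site. TGACGTCA, searched on both strands, was in the window of Dio2 and in 1.79% of all 32851 windows. TATAAA was in the windows of Dio2 and Vim and in 13.6% of all. The letters TTCNNNGAA, to which STAT proteins bind, were in 0 of the 4 windows and in 8.3% of all. A match of letters is a description of the window and not a binding site.

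Each library held 20743217 to 41829907 counts. Levels are given in CPM, a library's counts scaled to a common total with edgeR's TMM factors, with the SD over 3 pools. Each library holds RNA of several mice, so SDs and p-values measure the spread between pools. The tagged transcript Gfp_L10a was 8.38 to 16.8 times higher on the beads than in the supernatant of the same pool. Stat3, the floxed gene, had a bead-bound level of 141 ± 23.5 CPM in the Stat3KO pools, against 166 ± 19.6 CPM for Ctrl (log2 fold change -0.24, edgeR adjusted p = 0.999), and counts over the whole gene do not show whether floxed exons were lost. The pools numbered 1 stood apart from pools 2 and 3 in every group. In Ctrl bead-bound pool 1, mitochondrially encoded transcripts took 0.166% of counts, against 0.0180% to 0.0403% in the other bead-bound libraries and 0.770% to 1.503% in the supernatants.

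The 6 genes differed widely in level per kilobase of exon. In Ctrl supernatant Crym was highest at 14.03 ± 0.0706 CPM per kilobase, and Vim followed at 4.66 ± 0.371 and Dio2 at 3.28 ± 0.165. Col23a1 (1.12 ± 0.190) and Nes (0.446 ± 0.140) were lower, and Rax was lowest at 0.109 ± 0.0138. In Ctrl bead-bound RNA the order was the same, at 9.96 ± 4.33 CPM per kilobase for Crym, 8.45 ± 1.21 for Vim, 1.26 ± 0.624 for Dio2, 0.806 ± 0.187 for Col23a1, 0.754 ± 0.391 for Nes and 0.0761 ± 0.0763 for Rax. There Crym and Vim lay within each other's spread, and so did Dio2, Col23a1 and Nes. In Stat3KO bead-bound RNA, in CPM per kilobase, Vim (8.13 ± 1.05) came before Crym (7.19 ± 5.14) within their spread, followed by Dio2 (0.989 ± 0.131), Col23a1 (0.844 ± 0.241), Nes (0.735 ± 0.488) and Rax (0.0599 ± 0.0211). In Stat3KO supernatant the order was that of Ctrl, from 11.4 ± 7.08 CPM per kilobase for Crym, 5.32 ± 0.562 for Vim and 3.09 ± 0.681 for Dio2 to 1.06 ± 0.359 for Col23a1, 0.540 ± 0.0734 for Nes and 0.117 ± 0.0295 for Rax.

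**Figure D1:**
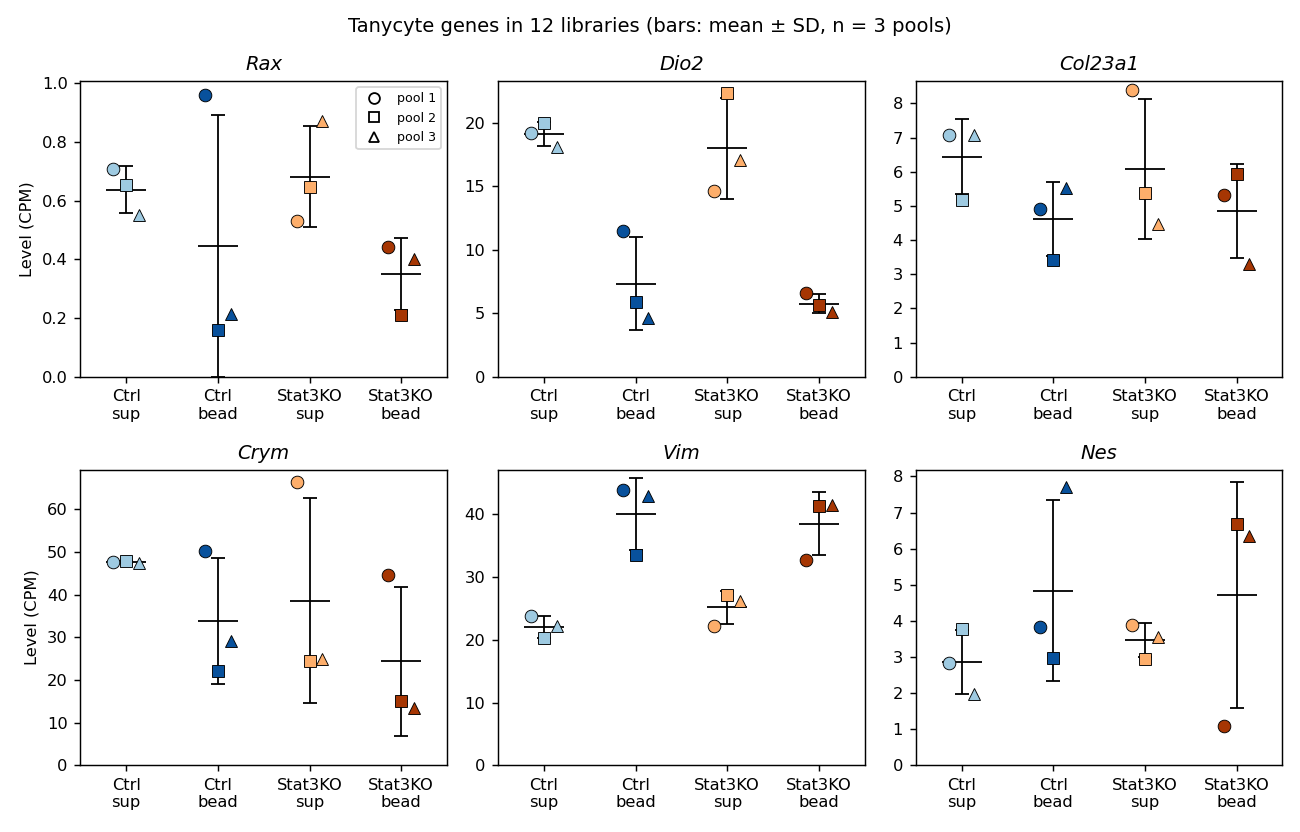
Level of each gene (CPM, linear axes from 0) in the 12 libraries, by genotype and fraction. Points are pools and bars are the mean ± SD of 3 pools; Dio2 is low and Vim high in all bead-bound (bead) libraries against all supernatant (sup) ones, while the other 4 genes overlap.

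Dio2 fell and Vim rose on the beads, and the other 4 genes did not pass the test over both genotypes (edgeR quasi-likelihood test over 12 libraries, Benjamini-Hochberg adjusted p under 0.05). Over all 19122 genes tested 54.9% were called, 26.2% higher on the beads and 28.7% lower. In this fit, without the pool as a block, 1 higher and 1 lower among 6 is thus no more than the background. The same 2 members passed in Ctrl alone, where 41.9% of all genes were called, and in Stat3KO alone, where 32.1% were. With library totals in place of TMM the calls over all genes moved from 5012 higher and 5488 lower to 3630 and 6722, since that scaling shifted the median of all genes by -0.13 on the log2 scale; no member changed direction. The median log2 fold change of the 6 members was -0.493, against -0.0284 for all genes. The fractions with the same number share a pool, which that fit did not use. With the pool as a block 4 of the 6 were lower, namely Rax, Dio2, Col23a1 and Crym. The block also called more of all genes in both directions, 6014 higher and 6492 lower of the 19122 tested. All 6 passed the filter on low counts in every comparison before any library was left out. In bulk RNA, fewer cells of a type and less RNA per cell cannot be told apart. The comparison of fractions also does not separate RNA on tagged ribosomes from other RNA left on the beads.

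Dio2 (ENSMUSG00000007682; GRCm38 chromosome 12, 90724552 to 90738438, minus strand) was at 11.5, 5.90 and 4.65 CPM in Ctrl bead-bound pools 1, 2 and 3 and at 19.2, 20.01 and 18.1 CPM in the matching supernatants. In Stat3KO it was at 6.57, 5.61 and 5.06 CPM on the beads and at 14.6, 22.3 and 17.0 CPM in supernatant. It was lower on the beads in 6 of 6 pools, as were 30.3% of all genes tested, and every bead-bound library lay below every supernatant library, which holds for 15.9%. The log2 fold change was -1.52 (SE 0.188, adjusted p = 1.61e-05), or 2.87-fold lower. It was -1.38 (SE 0.305, adjusted p = 0.00795) in Ctrl alone, where 21.2% of all genes were called lower, and -1.66 (SE 0.196, adjusted p = 0.000561) in Stat3KO alone, where 17.3% were. The bead-bound level was 59.8%, 29.5% and 25.7% of the supernatant level in Ctrl pools 1, 2 and 3 and 45.0%, 25.1% and 29.7% in Stat3KO, so the pools numbered 1 kept most. The summed level of 10 astrocyte markers moved the same way, at 78.7%, 50.8% and 48.9% in Ctrl and 68.3%, 55.3% and 53.8% in Stat3KO, and its part in the Dio2 values was not tested. Dio2 overlaps Gm26512, a noncoding gene on the other strand with 27 to 144 counts, and reads of the 2 strands may not have been told apart in the counting.

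Rax (ENSMUSG00000024518; chromosome 18, 65928277 to 65939787, minus strand) was counted in every bead-bound library, but with few reads. The counts were 23, 5 and 8 in Ctrl bead-bound pools 1, 2 and 3 and 14, 8 and 14 in Stat3KO. The supernatants held 16, 26 and 23 in Ctrl and 21, 28 and 22 in Stat3KO. In CPM this was 0.959, 0.160 and 0.215 against 0.708, 0.654 and 0.549 in Ctrl, and 0.440, 0.210 and 0.400 against 0.530, 0.646 and 0.869 in Stat3KO. Rax was thus lower on the beads in 5 of 6 pools, and Ctrl pool 1, the library with the high mitochondrial share, was the exception. The log2 fold change was -0.77 (SE 0.399, adjusted p = 0.117), and the call turned to lower with the pool as a block (-0.92, adjusted p = 0.0476). It also passed without Ctrl bead-bound replicate 1 (-1.33, adjusted p = 0.00357) and without both pools numbered 1 (-1.47, adjusted p = 0.00591). Its antisense gene Raxos1 had 0 to 7 counts.

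Crym (ENSMUSG00000030905; chromosome 7, 120186380 to 120202111, minus strand) varied widely between pools, most of all in Stat3KO. It was at 50.2, 22.1 and 29.0 CPM in Ctrl bead-bound pools 1, 2 and 3 against 47.5, 47.9 and 47.4 CPM in supernatant. In Stat3KO it was at 44.5, 15.2 and 13.5 CPM on the beads against 66.3, 24.5 and 24.9 CPM in supernatant. Within pools it was lower on the beads in 5 of 6, again all but Ctrl pool 1. The log2 fold change was -0.58 (SE 0.317, adjusted p = 0.133), and with the pool as a block it passed (-0.65, adjusted p = 0.000400), as it did in Ctrl alone (-0.58, adjusted p = 0.0208) and in Stat3KO alone (-0.72, adjusted p = 5.42e-05). Without Stat3KO bead-bound replicate 1 it was -0.96 (adjusted p = 0.00715), and without both pools numbered 1 it was -0.84 (adjusted p = 1.09e-06). Without Stat3KO supernatant replicate 1 it shrank to -0.26 (adjusted p = 0.461), and in Stat3KO alone to -0.03 (adjusted p = 0.969).

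Col23a1 (ENSMUSG00000063564; chromosome 11, 51289920 to 51583918, plus strand) was at 4.92, 3.43 and 5.52 CPM in Ctrl bead-bound pools 1, 2 and 3 and at 7.08, 5.19 and 7.07 CPM in supernatant. In Stat3KO it was at 5.31, 5.93 and 3.29 CPM on the beads and at 8.40, 5.38 and 4.46 CPM in supernatant. It was lower on the beads in 5 of 6 pools, all but Stat3KO pool 2, by a log2 fold change of -0.40 (SE 0.195, adjusted p = 0.0911). With the pool as a block it passed (-0.40, adjusted p = 0.0112), also in Ctrl alone (-0.48, adjusted p = 0.0160), and it did so with library totals (-0.54, adjusted p = 0.0359). Without both pools numbered 1 it was -0.27 (adjusted p = 0.250), and without Stat3KO supernatant replicate 1 it was -0.25 (adjusted p = 0.268).

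Vim (ENSMUSG00000026728; chromosome 2, 13573927 to 13582826, plus strand) was at 43.9, 33.5 and 42.9 CPM in Ctrl bead-bound pools 1, 2 and 3 and at 23.8, 20.3 and 22.2 CPM in supernatant. In Stat3KO it was at 32.8, 41.3 and 41.6 CPM on the beads and at 22.2, 27.2 and 26.2 CPM in supernatant. It was higher on the beads in 6 of 6 pools, as were 28.4% of all genes tested, and every bead-bound library lay above every supernatant library, which holds for 15%. The log2 fold change was 0.74 (SE 0.102, adjusted p = 4.00e-05), or 1.67-fold higher. It was 0.87 (SE 0.136, adjusted p = 0.00195) in Ctrl alone, with 20.7% of all genes called higher, and 0.60 (SE 0.146, adjusted p = 0.0133) in Stat3KO alone, with 14.7%.

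Nes (ENSMUSG00000004891; chromosome 3, 87971078 to 87980451, plus strand) was at 3.84, 2.98 and 7.69 CPM in Ctrl bead-bound pools 1, 2 and 3 and at 2.83, 3.78 and 1.98 CPM in supernatant. In Stat3KO it was at 1.10, 6.69 and 6.35 CPM on the beads and at 3.88, 2.96 and 3.56 CPM in supernatant. It was higher on the beads in 4 of 6 pools, and Stat3KO bead-bound pool 1 was the lowest of all 12 libraries. The log2 fold change was 0.61 (SE 0.351, adjusted p = 0.155), and the pool as a block did not bring it past the test (0.46, adjusted p = 0.262). Without Stat3KO bead-bound replicate 1 it passed (0.84, adjusted p = 0.00766), and without both pools numbered 1 it was 0.96 (adjusted p = 0.00404). Without Ctrl bead-bound replicate 3 it was 0.35 (adjusted p = 0.414).

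**Figure D2:**
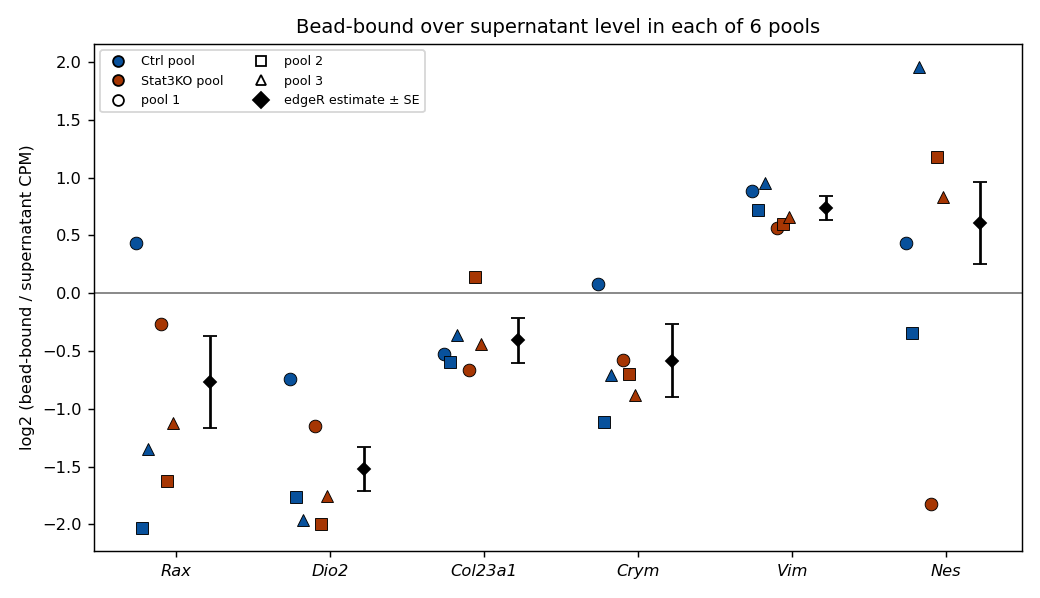
Log2 ratio of the bead-bound to the supernatant level (CPM) of each gene in 6 pools, coloured by genotype, with the pool number as the marker shape. Black diamonds are the edgeR estimate ± SE over 12 libraries; Dio2 lies below 0 and Vim above 0 in all 6 pools, and the pool 1 circles are the highest for Rax, Dio2 and Crym in each genotype.

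The levels of markers of other cells were set beside these genes, as summed CPM of each list. Endothelial markers rose on the beads for 10 of 11 (median log2 fold change 1.86), against 26.2% of all genes called higher and 28.7% lower. Their sum was 71.7, 87.4 and 169 CPM in Ctrl bead-bound pools 1, 2 and 3 and 21.3, 183 and 132 CPM in Stat3KO, against 25.2 to 32.0 CPM in the supernatants. The 3 libraries with the most Nes were the 3 with the highest endothelial sum, and Stat3KO bead-bound pool 1 was lowest in both. Between these the match was loose. Ctrl bead-bound pool 2, with a sum of 87.4 CPM, had less Nes (2.98 CPM) than its supernatant (3.78 CPM). Pecam1, an adhesion molecule of endothelium, was at 1.79 and the tight junction gene Cldn5 at 1.87 on the log2 scale (adjusted p = 9.65e-05 and 0.000215). Markers of mural cells summed to 39.6 to 126 CPM on the beads and 77.5 to 92.0 CPM in supernatant, with 2 of 9 higher and 1 lower. As a share of the supernatant level, Vim was at 148%, 152% and 158% in Stat3KO pools 1, 2 and 3. The endothelial sum there was at 84.7%, 573% and 522%. In Ctrl pools 1, 2 and 3 Vim was at 184%, 165% and 194%, and the endothelial sum at 239%, 337% and 593%. Vim and Nes are made by vascular cells too, and the part of these cells in their values was not tested.

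Genes known from astrocytes and radial glia fell on the beads, as Dio2 did. Over all genes 28.7% were called lower and 26.2% higher. All 10 astrocyte markers were lower (median -0.996), among them the water channel gene Aqp4 at -1.25 and the glial filament gene Gfap at -0.84. Of 10 genes of neural progenitors and radial glia, 9 were lower and 0 higher (median -0.861), with the transcription factor genes Sox9 at -1.13 and Sox2 at -0.39 and the lipid-binding Fabp7 at -1.32. Ciliated ependymal cells line the ventricle beside tanycytes, and 3 of their 6 tested markers fell, with Foxj1, the master gene of motile cilia, at -1.01. All 7 oligodendrocyte markers fell (median -1.25), and 6 of 7 microglial markers did (median -1.58). By contrast all 6 markers of LepRb arcuate neurons rose (median 4.16), with Lepr at 2.34 and Agrp, of an appetite-driving peptide, at 6.07. No marker list held a gene at 0 in all 12 libraries.

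As a share of the supernatant level, the oligodendrocyte sum on the beads was 29.6% to 55.3% over the 6 pools, the astrocyte sum 48.9% to 78.7% and the ependymal sum 41.7% to 72.4%. Rax lay at 24.5% to 135% and Dio2 at 25.1% to 59.8%. The LepRb arcuate sum was at 2114% to 3103%. The neuron sum was at 95.1% to 130%, the mural cell sum at 49.1% to 137% and the endothelial sum at 84.7% to 593%. Abundant genes weigh most in such sums, while Rax and Dio2 are single genes. In Ctrl bead-bound RNA Pomc was at 521 and Lepr at 10.7 CPM, and Snap25 at 3544 and Rbfox3 at 209 CPM. Rax and Dio2 on the beads thus stood far below the LepRb genes. The wide range of Rax, from few reads, overlapped those of glia, neurons and vascular cells alike, and that of Dio2 overlapped those of glia, ependyma and mural cells.

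**Figure D3:**
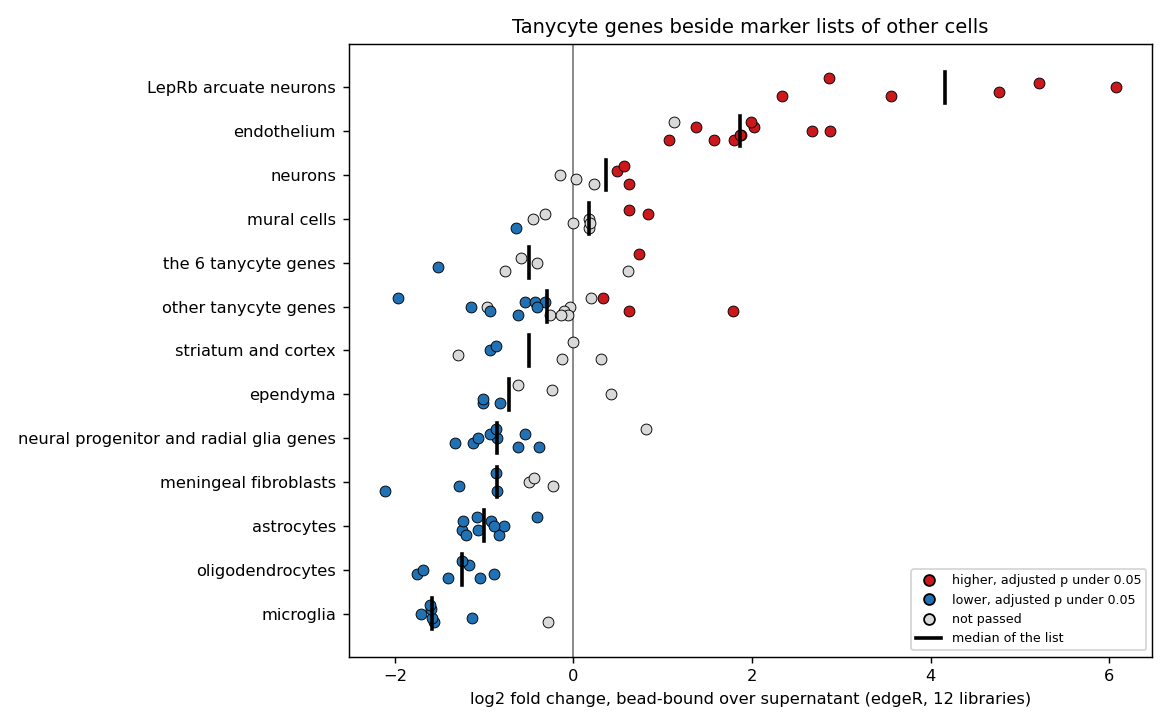
Log2 fold change of bead-bound over supernatant RNA (edgeR, 12 libraries) for each tested gene of the 6 tanycyte genes and of lists for other cells. Red and blue points passed the test as higher and lower, grey points did not, and black lines are list medians; LepRb neuron and endothelial lists lie to the right, glial lists to the left, and the tanycyte genes on both sides of 0.

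Of 18 further genes known from tanycytes or the ventral ventricle wall, 8 were lower on the beads, 3 were higher and 7 did not pass (median -0.291). Over all genes 28.7% were lower and 26.2% higher. The lower genes included the extracellular matrix gene Vcan, at 3.68 ± 0.480 CPM in Ctrl bead-bound RNA and 15.97 ± 0.358 CPM in supernatant (-1.96, adjusted p = 1.37e-07). Adm, of the vasodilator adrenomedullin, was at -1.14 (adjusted p = 0.00318), the sodium channel gene Scn7a at -0.62 (adjusted p = 0.0301) and the nuclear receptor gene Nr2e1 at -0.94 (adjusted p = 0.000206). Frzb, of a secreted Wnt inhibitor, was at -0.43, the glutamate transporter gene Slc17a8 at -0.54, Trhde at -0.32 and the polarity gene Crb2 at -0.40. The higher genes were Six6, a homeobox gene that arcuate neurons also express (16.8 ± 0.667 against 4.25 ± 0.315 CPM in Ctrl; 1.79, adjusted p = 2.24e-08), the orphan receptor gene Gpr50 (0.62, adjusted p = 0.0370) and the growth factor gene Fgf10 (0.33, adjusted p = 0.0224). With library totals Six6 stayed past the test, while Gpr50 (adjusted p = 0.0947) and Fgf10 (adjusted p = 0.134) did not. The count of lower genes was 4 without Stat3KO supernatant replicate 2 or bead-bound replicate 3 and 5 without Stat3KO supernatant replicate 1 or Ctrl supernatant replicate 3. The count of higher genes was 1 without Stat3KO supernatant replicate 3 or Ctrl bead-bound replicate 3. Lhx2, of a transcription factor that tanycytes need, was at -0.26 (adjusted p = 0.0962), but was lower with the pool as a block (-0.28, adjusted p = 0.00868) and with library totals (-0.39, adjusted p = 0.0188). With the block, which called 6014 of all 19122 genes higher and 6492 lower, 10 of the 18 genes were lower and 3 higher. Ppp1r1b, of a phosphatase inhibitor that striatal neurons also make, did not pass without the block (-0.97, adjusted p = 0.102). With the block it was lower, at -1.15 (adjusted p = 8.39e-06). Col25a1, a collagen that neurons also make, did not pass without the block (-0.10, adjusted p = 0.549) or with it (-0.11, adjusted p = 0.0872).

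Of the 14 genes around Dio2 and Crym in thyroid hormone handling 5 were lower, 3 higher and 6 not past the test (median -0.244). Over all genes 28.7% were lower and 26.2% higher, so going both ways is not particular to this list. The transporter gene Slc16a10 fell on the beads (-1.25, adjusted p = 5.45e-05). Slco1c1, of a hormone transporter of brain endothelium, rose (1.24, adjusted p = 0.00972), as did the amino acid transporter gene Slc7a5 (0.74, adjusted p = 4.75e-05), which endothelium also expresses. The receptor gene Thra rose (0.49, adjusted p = 0.000380) and Thrb did not pass (0.06, adjusted p = 0.634). Dio3, of the deiodinase that inactivates thyroid hormone, was at 0.981 ± 0.188 CPM on the beads and 1.30 ± 0.281 CPM in supernatant in Ctrl (-0.56, adjusted p = 0.148). Trhde, of the enzyme that degrades thyrotropin-releasing hormone, and the hormone-induced genes Klf9 (-0.45, adjusted p = 0.000469) and Hr (-0.54, adjusted p = 0.00162) fell.

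Among 10 intermediate filament genes 1, Vim, was called higher on the beads and 3 lower, against 26.2% and 28.7% of all genes. Gfap and the neurofilament genes Nefm (-0.44, adjusted p = 0.00152) and Nefh (-0.46, adjusted p = 0.00110) fell, and 6, Nes among them, did not pass (median -0.148).

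Between the genotypes none of the 6 genes passed the edgeR test, in either fraction. In bead-bound RNA the log2 fold changes of Stat3KO over Ctrl ran from -0.47 (SE 0.439) for Crym to 0.07 (SE 0.281) for Col23a1, each with adjusted p = 0.999. Rax was at -0.29 (SE 0.699), Dio2 at -0.35 (SE 0.315), Vim at -0.06 (SE 0.165) and Nes at -0.04 (SE 0.552). In supernatant they ran from -0.30 (SE 0.306) for Crym to 0.27 (SE 0.246) for Nes, with adjusted p from 0.873 to 0.979. DESeq2 also called 0 members in both fractions, and 0 had an unadjusted p under 0.05. Over all genes 0.449% were called in bead-bound RNA (0.421% higher and 0.0288% lower in Stat3KO) and 0.0108% in supernatant, all of them lower. None of the 18 further tanycyte genes passed between genotypes in either fraction, with medians of -0.208 on the beads and -0.138 in supernatant. The difference of the bead over supernatant ratio between genotypes was not past the test for any member either (0.204% of all genes called, 0.193% higher and 0.0105% lower; -0.37 for Rax to 0.14 for Col23a1, adjusted p = 1.0 for each to 3 digits).

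Crym was the member whose genotype call depended on the pools numbered 1. Without Stat3KO supernatant replicate 1 it was lower in Stat3KO supernatant (-0.96, adjusted p = 0.00863), in a fit that called 6 genes higher and 37 lower. Without both pools numbered 1 it was lower in Stat3KO bead-bound RNA (-0.86, adjusted p = 0.000626), in a fit that called 273 genes higher and 894 lower. Markers of striatum and cortex, where Crym is also expressed, moved with it. Their sum was 248, 85.4 and 118 CPM in Stat3KO supernatant pools 1, 2 and 3 and 236, 297 and 227 CPM in Ctrl supernatant. On the beads the Stat3KO pools had sums of 163, 90.2 and 105 CPM, and the Ctrl pools 156, 146 and 137 CPM. Pools 2 and 3 of Stat3KO thus had both the least Crym and the lowest marker sums in each fraction, and the part of these regions in the Crym values was not tested.

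**Figure D4:**
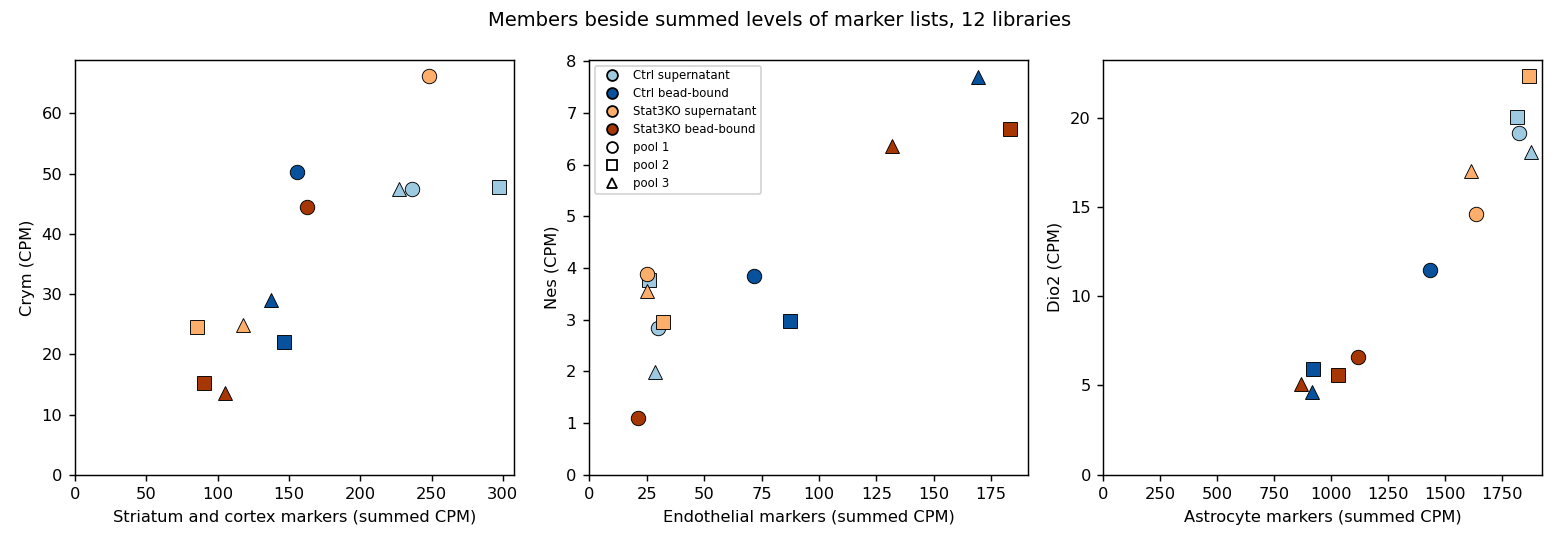
Level (CPM) of Crym, Nes and Dio2 in the 12 libraries against the summed CPM of markers of striatum and cortex, endothelium and astrocytes; colours are groups and shapes are pools. Stat3KO pools 2 and 3 are low on both axes for Crym, 3 bead-bound libraries are high on both for Nes, and bead-bound libraries are low on both for Dio2.

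The genes whose log2 CPM followed each member most closely over the 12 libraries were ranked by Pearson's r among 13414 named genes with a mean of at least 1 CPM. For Dio2 they were Plin3 (0.989), Ak3 (0.985) and Sept4 (0.984), for Vim Kat8 (0.981) and Gbgt1 (0.976), and for Nes Clec2d (0.950), Slc19a3 (0.901) and Lama5 (0.901). For Crym they were Cyp46a1 (0.947), Igfbp4 (0.935) and Lamp5 (0.933), for Rax Necab3 (0.921), Dusp5 (0.914) and Cib1 (0.912), and for Col23a1 Icosl (0.908), Slc41a1 (0.907) and Cchcr1 (0.896). The 12 points share pools and fractions, so these values describe a pattern and are not tested.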

How the data were processed

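The deposited table holds unnormalized read counts, as whole numbers, for each gene in each of 12 libraries. STAR 2.5.3a and mm10 are named in the submitters' processing notes; how reads were counted, and over which annotation, is not given in the sources used here. Per the labels' protocols a block with 3 mm edges was dissected, and libraries were made from polyA RNA. GENCODE M21 (GRCm38) named 52403 entries and left 233 without a name; 0 columns were left over.

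The test was edgeR's quasi-likelihood test (version 4.0.16, R 4.3.3; TMM, filterByExpr at min.count 10 and min.total.count 15, 2-sided, adjusted over all genes tested). The 2-genotype fraction comparison and the interaction used 12 libraries, the others their 6. SE is the log2 fold change divided by the square root of F. CPM used TMM factors over all 12 libraries, and log2 CPM a prior count of 2. The script was tested on simulated data. No batch is given for single libraries, and pools of 1 group were counted as replicates; no 2 libraries of a group were within sampling noise (chi-square per gene 5.91 to 75.5).

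Same-numbered fractions of a genotype share a pool of mice, per the series design; deviations from group means correlated at 0.196 to 0.367 in same-numbered libraries. Alternatives were the pool block, DESeq2 1.42.0, library totals, no filter, all 12 libraries, and leaving out libraries.

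The members, lists and tests were chosen with earlier results of these data known. The named genes are the 6 members, genes of the fixed lists and, for likeness, the 3 with the highest r per member; 2 genes that this rule names are not reported here.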

Additional observations from a re-analysis of the deposited data

How the results depend on the processing

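Over both genotypes, the calls of Dio2 as lower (log2 fold change -1.87 to -1.39) and of Vim as higher (0.61 to 0.80) on the beads held under all 18 other settings. The count of members called lower, 1, became 2 with library totals, 2 with no filter, 4 with the replicate block (pool), 3 without both pools numbered 1 and 3 with both of these, a pair chosen after seeing the data; leaving out 1 library gave 1 to 2. Calls over all genes moved too, from 5012 higher and 5488 lower to 3630 and 6722 with library totals, 5392 and 5959 with no filter, 6014 and 6492 with the block, 5742 and 5902 without both pools numbered 1, and 4556 to 5134 and 4981 to 5662 on leaving out 1 library. On leaving out 1 library the log2 fold changes that had not passed ran from -1.33 to -0.56 for Rax, -0.49 to -0.25 for Col23a1, -0.96 to -0.26 for Crym and 0.35 to 0.84 for Nes, and in Stat3KO from -1.43 to -0.03 for Crym. The count called higher, 1, became 2 with no filter, without both pools numbered 1 and with that and the block, and 1 to 2 on leaving out 1 library. In Ctrl, 2 members were higher and 2 lower with no filter, 3 lower with the block, and 1 to 3 lower on leaving out 1 library. In Stat3KO, 2 were lower with no filter and with the block, and 1 to 2 higher and 1 to 2 lower on leaving out 1 library. Of the other tanycyte genes, 3 higher and 8 lower became 1 higher and 9 lower with library totals, 3 and 6 with no filter, 3 and 10 with the replicate block (pool), 3 and 10 without both pools numbered 1, 3 and 11 with both, and 1 to 3 higher and 4 to 8 lower on leaving out 1 library.

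Between genotypes, 1 member (Crym) was lower in bead-bound RNA without both pools numbered 1 and 0 to 1 in supernatant on leaving out 1 library. The directions turned for values that had not passed. Without both pools numbered 1, Vim (0.0926) and Nes (0.26) turned in bead-bound RNA. Leaving out 1 library gave bead-bound ranges of -0.70 to 0.87 for Rax, -0.60 to 0.12 for Dio2, -0.12 to 0.29 for Col23a1, -0.18 to 0.0521 for Vim and -0.39 to 0.47 for Nes. In supernatant it gave -0.11 to 0.23 for Rax, -0.28 to 0.0376 for Dio2 and -0.39 to 0.10 for Col23a1. The difference of ratios ran from -0.77 to 0.77 for Rax, -0.51 to 0.21 for Dio2, -0.0357 to 0.45 for Col23a1, -0.93 to 0.48 for Crym and -0.64 to 0.20 for Nes. The cause of these changes was not tested. Pools of different genotypes share only a number (r of -0.0851 to 0.141 for same-numbered libraries), and the replicate block (number) called 0 members there. The pool block changed no member's call beyond those given. Counts of 5 to 28 limit Rax, which was not tested between genotypes in bead-bound RNA without both pools numbered 1.

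Over all genes, calls in bead-bound RNA between genotypes went from 73 higher and 5 lower to 53 to 273 and 3 to 894 over the settings, and in supernatant from 0 and 2 to 0 to 46 and 2 to 157. For the difference of ratios they went from 37 and 2 to 24 to 76 and 0 to 21, in Ctrl from 3735 and 3829 to 2215 to 5307 and 2642 to 5237, and in Stat3KO from 2669 and 3135 to 1201 to 4290 and 1678 to 4709. The lowest counts came without Ctrl supernatant replicate 2 (2215 higher in Ctrl) and without Stat3KO supernatant replicate 2 (1201 higher and 1678 lower in Stat3KO).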
